A study of Drosophila melanogaster with 249 samples.

Results

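Adult heads of Drosophila melanogaster heterozygous for the w1118 X and a w+ X were set against heads homozygous for w1118, in libraries of the series that carried no DrosDel deficiency. The rule took every such library with the X karyotype w1118/w+ or w1118/w1118, once in XX flies and once in XX flies transformed to males with tra2, and gave 11 of 249 libraries: 5 of w1118/w+ and 6 of w1118/w1118. The XX w1118/w+ heads (n = 2) were daughters of w1118/w1118 mothers and w+/Y fathers, and the XX w1118/w1118 heads (n = 3) were females of the w1118 stock. The tra2 XX w1118/w+ heads (n = 3) came from w1118/w1118;SM6a/tra2B mothers and w+/Y;CyO/Df(2R)trix fathers, and the tra2 XX w1118/w1118 heads (n = 3) from w1118/w1118;Gla/Df(2R)trix mothers and w1118/BsY;SM6a/tra2B fathers. All 6 tra2 libraries carried Df(2R)trix/tra2B on chromosome 2. XX w+/w+ females of the w+ stock (n = 3) served as the other homozygous line and are given last wherever they are used. Each library was made from poly-A+ RNA of 10 heads of flies 5 d old. Neither contrast isolates the X: XX w1118/w+ flies were also heterozygous between the stocks on every autosome, the tra2 crosses differed in the balancers and stocks of their parents, the tra2B chromosome of the stock named in the study's methods also carries cn1 and bw1, and the labels do not say whether the w+ X of the tra2 cross is that of the w+ stock.

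The white gene encodes a subunit of ABC transporters in the membrane of eye pigment granules, where it pairs with scarlet to carry ommochrome precursors and with brown to carry pteridine precursors. The w1118 allele is a partial deletion of white and gives white eyes. The transformer 2 protein, with transformer, directs the female splicing of doublesex, and XX flies without it develop as males.

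Reads on genes ran between 6890861 and 14268354 in the 14 libraries fitted. Reads of ribosomal RNA genes made up 18.99% of those in XX w1118/w1118 replicate 3 and 4.32 to 5.82% in the other 13 libraries, and leaving these genes out gave 775 calls in XX, where all genes gave 767. The yolk protein gene Yp2, a female fat body gene, had 277668 and 311386 normalized read counts in XX w1118/w+ and 117167, 148772 and 114113 in XX w1118/w1118, with 197873, 329378 and 423287 in XX w+/w+. In tra2 heads it had 84.0, 108 and 93.6 in w1118/w+ and 134, 108 and 66.6 in w1118/w1118. Summed markers of testis and accessory gland lay between 0.612 and 3.92 normalized read counts in the 14 libraries and those of ovary between 2.83 and 20.7, where 8 photoreceptor markers summed to 167333 or more. The w1118/w+ and w1118/w1118 libraries did not overlap in 43.2% of the genes tested in XX and in 21.9% in tra2 XX, and genes both called and not overlapping made up 7.69 and 4.02%. Levels here are the normalized read counts that the authors deposited, which do not correct for gene length. Fold changes are log2 of w1118/w+ over w1118/w1118 from an edgeR quasi-likelihood fit, and a gene is called when its Benjamini-Hochberg adjusted p over 9970 genes is under 0.05. The labels do not say whether the libraries of a group came from separate cultures, so p-values measure the spread between these pools of heads.

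White itself followed the labels. It had 75.9 and 72.5 normalized read counts in XX w1118/w+, against 0.471, 1.48 and 3.54 in XX w1118/w1118, and 110, 110 and 123 in XX w+/w+. In tra2 XX it had 58.8, 49.1 and 39.8 in w1118/w+, against 0.462, 0 and 1.31 in w1118/w1118. Every w1118/w+ library lay above every w1118/w1118 library and below every w+/w+ library, and the XX heterozygote reached 64.2% of the distance between the homozygous means. The log2 fold change in XX was 5.37 ± 0.35 (SE, adjusted p = 3.95e-07). In tra2 XX, where no w1118/w1118 library had over 3 reads, the level was at least 27.0-fold higher, taken against 3 reads per library (adjusted p of the fit = 2.21e-06). The deficiency libraries held 115 to 5440 normalized read counts of white in XX and 340 to 11035 in tra2 XX.

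In XX, 439 genes were higher and 328 lower in w1118/w+ heads, 7.69% of the 9970 tested (4.4% higher, 3.29% lower). In tra2 XX, 250 were higher and 153 lower, 4.04% of those tested (2.51% higher, 1.53% lower). The XX contrast called 87 of 1612 X-linked genes (5.40%) and 661 of 8117 autosomal genes (8.14%), and the tra2 XX contrast called 87 X-linked genes (5.40%) and 302 autosomal genes (3.72%). The share called on the X was thus 0.663 of the autosomal share in XX and 1.45 times it in tra2 XX. In XX the arms 2L, 2R, 3L and 3R gave 9.16, 9.28, 8.29 and 6.55% called, and in tra2 XX they gave 3.11, 3.23, 4.20 and 4.29%. The ratio of X to autosomes stayed under 1 in XX in every alternative run (0.492 to 0.758). In tra2 XX it stayed between 1.16 and 1.47, except with the deficiency libraries as the reference, which gave 1.00. Counts of calls rested in part on single libraries: the XX contrast called 209 genes without XX w1118/w+ replicate 2, 451 without XX w1118/w+ replicate 1 and 413 without XX w1118/w1118 replicate 3. The tra2 XX contrast called 193 genes without tra2 XX w1118/w+ replicate 3, 258 without tra2 XX w1118/w1118 replicate 2 and 263 without tra2 XX w1118/w1118 replicate 3.

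**Figure D1:**
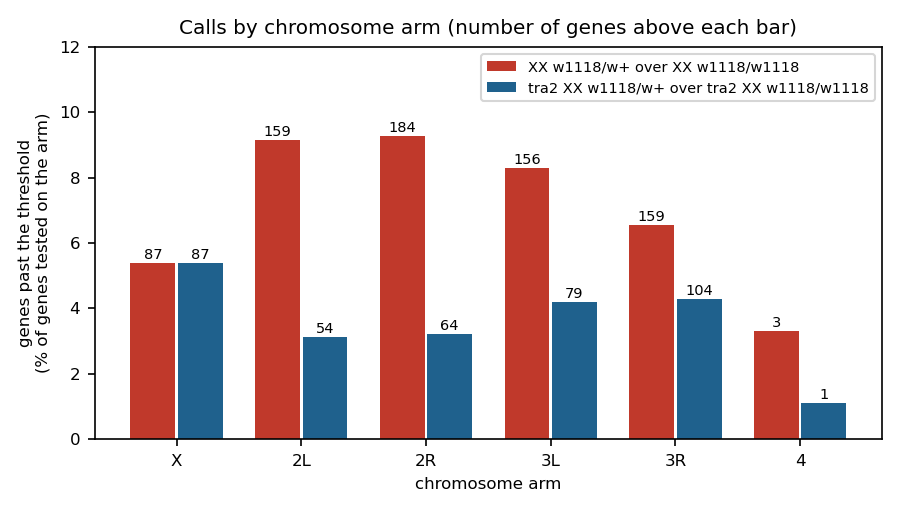
Percent of the genes tested on each chromosome arm (x axis) that passed the threshold (y axis, %), for XX w1118/w+ over XX w1118/w1118 and for tra2 XX w1118/w+ over tra2 XX w1118/w1118, with the number of genes above each bar. The bars of the X are equal at 5.40%, whereas on 2L and 2R the XX bars stand at 9.16 and 9.28% and the tra2 XX bars at 3.11 and 3.23%.

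The genes that rose most in XX were near 0 in XX w1118/w1118 heads and abundant in w+/w+ heads. CG1494, an ABCA-type transporter gene on the X, had 671 and 832 normalized read counts in XX w1118/w+, against 6.59, 4.43 and 1.77 in XX w1118/w1118, and 1902, 2624 and 2428 in w+/w+. The groups did not overlap, and the log2 fold change was 7.38 ± 0.25 (SE, adjusted p = 2.22e-10). In tra2 XX heads the same gene had 7.70, 11.3 and 7.95 in w1118/w+, against 4.16, 7.12 and 3.92 in w1118/w1118, so that the level seen in XX w1118/w+ was absent from tra2 heads that also carried a w+ X. The difference between the contrasts was 6.55 ± 0.56 (SE) on the log2 scale (adjusted p = 4.97e-05). CG1494 overlaps Abca3 on the other strand, and reads on more than 1 gene were counted for neither.

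The autosomal gene FBgn0010549, an ABC transporter gene on 2R, had 439 and 426 in XX w1118/w+, against 3.77, 2.46 and 4.73 in XX w1118/w1118, and 712, 1061 and 1090 in w+/w+. It had 0, 2.84 and 1.22 in tra2 XX w1118/w+, against 1.85, 4.27 and 2.61 in tra2 XX w1118/w1118. The XX change was 6.88 ± 0.28 (SE, adjusted p = 1.41e-09), and in tra2 XX all 6 libraries lay between 0 and 4.27. On 2L, the neighbours CG3285 and CG15408, which overlap on the same strand, had 136 and 121 and 79.7 and 65.7 in XX w1118/w+. In XX w1118/w1118 CG3285 had 0.471, 0 and 0.591 and CG15408 had 0 in all 3 libraries. Taken against 3 reads per library, they were at least 82.5-fold and at least 46.8-fold higher, and CG42586 at least 139-fold higher (208 and 224, against 1.41, 0.493 and 1.77).

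CG31775, CG4650, CG4714 and the Osiris family gene Osi22 were also higher in XX w1118/w+, by 7.22 ± 0.53, 6.03 ± 0.49, 5.00 ± 0.38 and 4.45 ± 0.38 (log2, SE). Osi22 had 154 and 126 in XX w1118/w+, against 3.29, 9.36 and 6.50 in XX w1118/w1118, and CG4714 had 53.3 and 83.9, against 2.35, 0.986 and 2.95. Both were near or above the w+/w+ mean in the heterozygote, whereas the peptidoglycan recognition protein genes PGRP-SC1a and PGRP-SC1b were far below it. PGRP-SC1a had 5.19 and 7.37 in XX w1118/w+, against 0, 0 and 0.591 in XX w1118/w1118, with 177, 122 and 249 in w+/w+. This was 3.33% of the distance to the w+/w+ mean, and the level was at least 4.04-fold higher than 3 reads per library (at least 4.52-fold for PGRP-SC1b). These paralogs are nearly identical, only uniquely mapped reads were counted, and neither call held without XX w1118/w+ replicate 2 (adjusted p = 0.0886 and 0.0676).

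**Figure D2:**
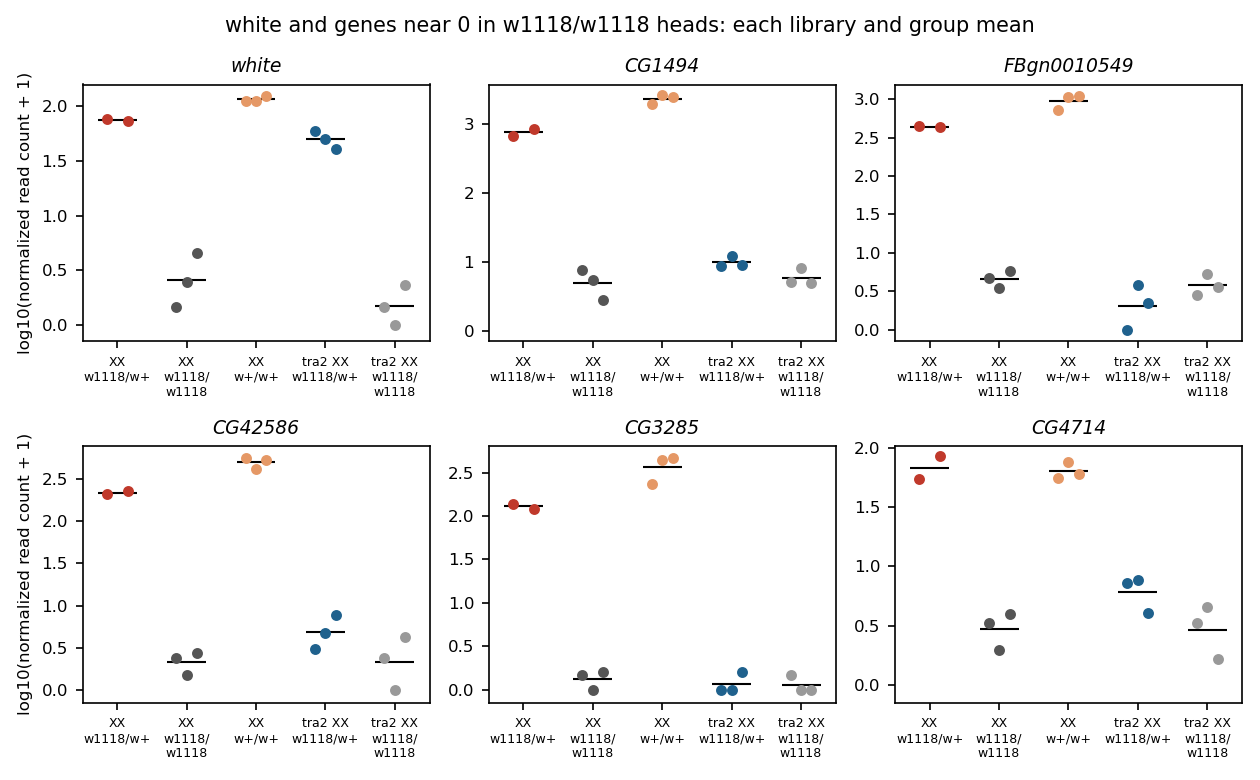
Normalized read counts as log10(count + 1) (y axis) in each library (points) of the 5 groups on the x axis, with a line at the mean of the plotted values, for white and 5 genes near 0 in w1118/w1118 heads. White is raised in both w1118/w+ groups and in XX w+/w+, whereas CG1494, FBgn0010549, CG42586, CG3285 and CG4714 are high in XX w1118/w+ and XX w+/w+ and low in XX w1118/w1118 and in both tra2 XX groups.

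Cytochrome P450 genes, which encode haem monooxygenases for foreign compounds and hormones, were the list with most calls in XX: of 69 members 61 were tested, 18 were higher, 2 were lower and 41 were not called, beside 4.4% higher and 3.29% lower among all genes. The median log2 fold change of the 61 was 0.24 and that of all genes tested -0.02. Cyp309a2 had 41.5 and 98.6 in XX w1118/w+, against 3.77, 3.45 and 1.18 in XX w1118/w1118, and 77.4, 94.1 and 128 in w+/w+ (log2 fold change 4.54 ± 0.50 SE, adjusted p = 6.99e-05). Cyp6a17 had 214 and 130, against 18.8, 15.8 and 16.0, and 500, 425 and 513 in w+/w+ (log2 fold change 3.35 ± 0.26 SE, adjusted p = 3.04e-06). Cyp4d1, on the X, had 49.0 and 31.2, against 4.71, 3.45 and 3.54, and 163, 154 and 193 in w+/w+ (log2 fold change 3.34 ± 0.42 SE, adjusted p = 0.000289). In each of these 3 genes the heterozygote lay above all w1118/w1118 libraries and below the w+/w+ mean.

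Cyp6d2 was higher by 3.88 ± 0.65 (SE, adjusted p = 0.00230), with 17.4 and 30.6 in XX w1118/w+ and 1.88, 0.493 and 2.36 in XX w1118/w1118. The paralogs Cyp12d1-p and Cyp12d1-d, whose reads may be split between them, were higher by 2.40 and 1.95. Changes of about 1 on the log2 scale were measured for Cyp12c1 (1.27), Cyp12a5 (1.11), Cyp12e1 (1.01) and Cyp4ac3 (1.00). The 2 lower members were Cyp305a1 (-1.08 ± 0.29 SE, adjusted p = 0.0322) and Cyp28d2 (-0.72 ± 0.20 SE, adjusted p = 0.0390). Head fat body markers, summed over 4 genes, were 70751 and 137001 in XX w1118/w+, against 41073, 82741 and 44435 in XX w1118/w1118, and their part in these counts was not tested. In tra2 XX no P450 gene was higher and only Cyp4s3 was lower, with 12.6, 8.51 and 9.79 in w1118/w+, against 39.3, 21.4 and 29.4 in w1118/w1118 (log2 fold change -1.54 ± 0.30 SE, adjusted p = 0.00831). Without tra2 XX w1118/w+ replicate 3 its adjusted p was 0.0562. Cyp309a2, near 0 in XX w1118/w1118, had 174, 125 and 179 in tra2 XX w1118/w+, against 137, 79.8 and 127 in tra2 XX w1118/w1118, and Cyp4d1 had 2.80, 4.73 and 4.28, against 10.2, 0.712 and 3.26. The difference between the contrasts passed the threshold for 7 of the 61 members, all more positive in XX. Among all genes 1.21% were called more positive and 1.66% more negative. The XX count was 8 higher and 1 lower without XX w1118/w+ replicate 2, 13 and 1 without XX w1118/w1118 replicate 3, and 3 and 4 against the XX deficiency libraries.

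**Figure D3:**
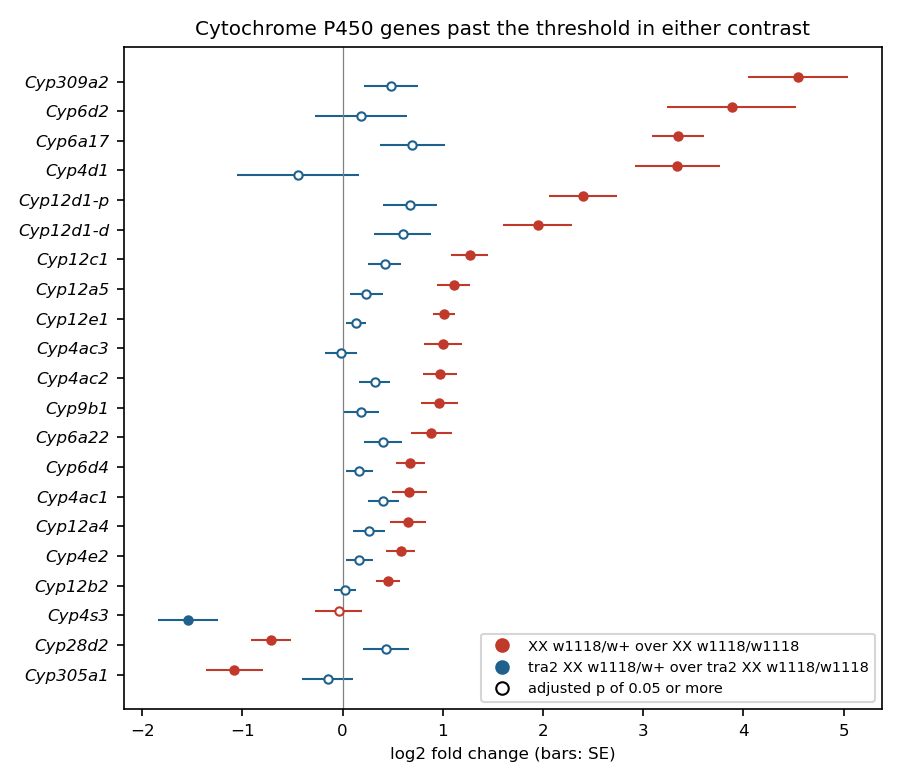
Log2 fold change of w1118/w+ over w1118/w1118 (x axis, error bars ± 1 SE) of the cytochrome P450 genes called in either contrast (rows), in XX and in tra2 XX, with open points at an adjusted p of 0.05 or more. In XX 18 points lie right of 0 and 2 left of it past the threshold, and in tra2 XX only Cyp4s3 is filled.

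Glutathione S-transferases, which conjugate glutathione to foreign and endogenous compounds, were lower in 6 and higher in none of 31 members tested in XX (median -0.08), beside 3.29% lower and 4.4% higher among all genes. GstE4 averaged 96.4 ± 41.6 in XX w1118/w+ and 202 ± 29.7 in XX w1118/w1118 (SD, n = 2 and 3), or -1.08 ± 0.28 (SE, adjusted p = 0.0288) as log2 fold change. GstE3 averaged 154 ± 25.8 in XX w1118/w+ and 262 ± 21.2 in XX w1118/w1118, a change of -0.77 ± 0.19 (SE, adjusted p = 0.0228), and GstD1 was lower by -0.69. The largest change was that of sepia, a transferase of the drosopterin pathway described with the eye pigments. The count of lower members fell to 1 without XX w1118/w1118 replicate 3 and without XX w1118/w+ replicate 1, and to 2 without XX w1118/w1118 replicate 2 and without XX w1118/w+ replicate 2. With the deficiency libraries as the reference 1 member was higher and 0 were lower.

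Acp1, Cpr49Ag and Osi2 were among the genes that fell most in XX. The adult cuticle protein gene Acp1 had 14.1 and 10.2 in XX w1118/w+, against 83.8, 41.9 and 69.1 in XX w1118/w1118, and 7.55, 6.49 and 12.6 in w+/w+ (log2 fold change -2.39 ± 0.34 SE, adjusted p = 0.000732). Cpr49Ag, a cuticle protein gene with a chitin-binding Rebers-Riddiford domain, had 79.7 and 68.6, against 316, 313 and 376, and 17.9, 8.11 and 15.8 in w+/w+ (log2 fold change -2.17 ± 0.19 SE, adjusted p = 6.64e-06). Osi2 had 17.4 and 11.9, against 96.0, 92.1 and 92.7, and 0, 2.43 and 1.58 in w+/w+ (log2 fold change -2.65 ± 0.32 SE, adjusted p = 0.000207). In all 3 genes the heterozygote and w+/w+ lay below every w1118/w1118 library.

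The flight muscle actin gene Act88F had 5.66 and 13.6 in XX w1118/w+, against 41.4, 61.6 and 54.9 in XX w1118/w1118 (log2 fold change -2.47 ± 0.51 SE, adjusted p = 0.00838), and the call was lost without XX w1118/w+ replicate 1 (adjusted p = 0.0990). Of 4 thoracic muscle markers tested, 2 were lower in XX, beside 3.29% of all genes, and none in tra2 XX, beside 1.53%. The sum of 5 thoracic muscle markers was 224 and 199 in XX w1118/w+, against 330, 510 and 354 in XX w1118/w1118. It did not overlap, nor did 43.2% of the genes tested in XX, and its part in the Act88F result was not tested. CG31205, CG42367 and CG17005 fell by 1.97, 2.52 and 2.01 on the log2 scale in XX. In tra2 XX none of these genes was called, and CG31205 had 517, 489 and 538 in w1118/w+, against 567, 401 and 420 in w1118/w1118. The small heat shock protein gene l(2)efl was lower in both contrasts. It had 343 and 303 in XX w1118/w+, against 867, 1070 and 1317 in XX w1118/w1118 (log2 fold change -1.74 ± 0.18 SE, adjusted p = 4.90e-05). In tra2 XX the change was -0.61 ± 0.16, and 5 of the 13 alternatives that keep w1118/w1118 as the reference ended that call.

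Among eye pigment genes, Rab32 (lightoid), which guides proteins to pigment granules, rose in both contrasts. It had 2782 and 2537 in XX w1118/w+, against 1556, 1477 and 1459 in XX w1118/w1118, and 2823, 2687 and 2777 in w+/w+ (log2 fold change 0.83 ± 0.11 SE, adjusted p = 0.000393). In tra2 XX it had 3270, 3569 and 3668 in w1118/w+, against 1940, 2131 and 2279 in w1118/w1118 (log2 fold change 0.74 ± 0.10 SE, adjusted p = 0.000601). The groups did not overlap in either contrast. Cardinal (cd), a haem peroxidase of the last step of ommochrome synthesis, had 49.98 and 44.8 in XX w1118/w+, against 23.1, 21.2 and 8.86 in XX w1118/w1118 (log2 fold change 1.39 ± 0.28 SE, adjusted p = 0.00689). It had 57.4, 69.0 and 58.7 in tra2 XX w1118/w+, against 27.3, 27.1 and 33.9 in tra2 XX w1118/w1118 (log2 fold change 1.07 ± 0.25 SE, adjusted p = 0.0229). Both groups of w1118/w+ lay above their w1118/w1118 libraries, but the call was lost without XX w1118/w+ replicate 1 in XX (adjusted p = 0.0549) and with any of 5 libraries left out in tra2 XX (up to 0.0830).

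In XX, karmoisin (kar), linked to ommochrome precursor uptake, was higher by 0.56 ± 0.11 on the log2 scale, Henna (Hn), the phenylalanine hydroxylase that uses a pteridine cofactor, by 1.18 ± 0.22, and pink (p), a subunit of a lysosome-related organelle complex, by 0.34 ± 0.10. The calls of kar and Hn were lost without XX w1118/w+ replicate 1 (adjusted p = 0.0869) and replicate 2 (0.0941), and that of p without any 1 of the 5 libraries (up to 0.224). Sepia (se), the enzyme that makes the pyrimidodiazepine of drosopterins, was lower, with 111 and 104 in w1118/w+, against 277, 249 and 307 in w1118/w1118, and 99.0, 98.1 and 97.2 in w+/w+ (log2 fold change -1.36 ± 0.17 SE, adjusted p = 0.000220). In tra2 XX sepia had 457, 289 and 376 in w1118/w+, against 371, 422 and 443 in w1118/w1118, and the contrasts differed (adjusted p = 0.00655). The white partners scarlet (st) and brown (bw) had higher levels in tra2 XX w1118/w+, by 0.65 ± 0.15 and 0.43 ± 0.11, with 95.9, 113 and 124 against 79.9, 56.3 and 75.1 for scarlet and 343, 329 and 351 against 260, 219 and 283 for brown. Those 2 changes passed the threshold narrowly (adjusted p = 0.0258 and 0.0367) and were lost in 5 and 7 of the 13 alternatives that keep w1118/w1118 as the reference.

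By list, 1 of 3 pigment transporter genes was higher in XX, white itself, and all 3 in tra2 XX, beside 4.4% of all genes in XX and 2.51% in tra2 XX. Of 5 ommochrome genes tested 2 were higher in each contrast, kar and cd in XX and cd and the multicopper oxidase gene Mco1 in tra2 XX. Of 6 pteridine genes 1 was higher and 1 lower in XX, and 1, purple (pr), was higher in tra2 XX (0.44 ± 0.11). Of 11 granule trafficking genes 2 were higher in XX and 1 in tra2 XX, and those of the AP-3 and HOPS complexes (g, rb, cm, or, car, dor and lt) were not called. Garnet (g), for one, had 691 and 787 in XX w1118/w+ and 757, 747 and 792 in XX w1118/w1118. Vermilion (v), which starts ommochrome synthesis from tryptophan, had 483 and 499 in XX w1118/w+, against 342, 338 and 361 in XX w1118/w1118, without overlap but not past the threshold.

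**Figure D4:**
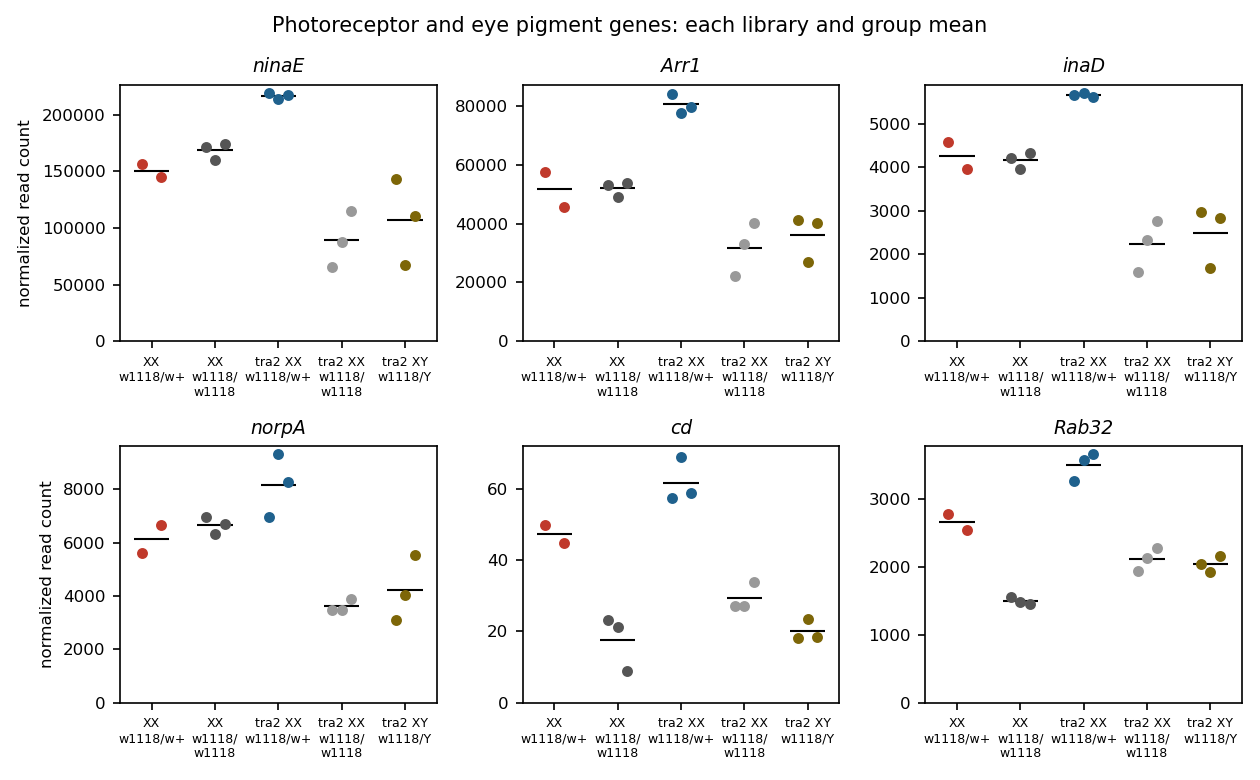
Normalized read counts (y axis, linear from 0) in each library (points; lines, means) of the 5 groups on the x axis, for ninaE, Arr1, inaD, norpA, cd and Rab32. All 6 genes are higher in every tra2 XX w1118/w+ library than in every tra2 XX w1118/w1118 library, and only cd and Rab32 are also higher in XX w1118/w+ than in XX w1118/w1118.

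Genes of the photoreceptor cascade differed in tra2 XX. Of 20 phototransduction genes tested (of 21), 9 were higher and none lower in tra2 XX w1118/w+, beside 2.51% higher among all genes, with a median log2 fold change of 0.53. Rhodopsin 1 (ninaE), the opsin of the outer photoreceptors R1 to R6, had 218996, 213569 and 217330 in tra2 XX w1118/w+, against 65476, 87402 and 115258 in tra2 XX w1118/w1118 (log2 fold change 1.29 ± 0.20 SE, adjusted p = 0.00195). It had 156841 and 144587 in XX w1118/w+, against 171286, 159610 and 174320 in XX w1118/w1118, which was not called. The lowest tra2 XX w1118/w+ library was thus above the highest library of tra2 XX w1118/w1118, and in XX both w1118/w+ libraries were below those of w1118/w1118.

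The phospholipase C gene norpA, on the X, had 6955, 9321 and 8277 in tra2 XX w1118/w+, against 3464, 3490 and 3881 in tra2 XX w1118/w1118 (log2 fold change 1.19 ± 0.13 SE, adjusted p = 0.000117). The scaffold gene inaD had 5658, 5702 and 5615, against 1603, 2322 and 2767 (log2 fold change 1.35 ± 0.16 SE, adjusted p = 0.000151), and the arrestin gene Arr1 had 84206, 77756 and 79806, against 22044, 32948 and 40321 (log2 fold change 1.35 ± 0.20 SE, adjusted p = 0.00110). None of the 3 overlapped between the groups. The myosin III gene ninaC (1.07), the eye-specific protein kinase C gene inaC (0.84), the second arrestin Arr2 (0.83), the G protein subunits Galphaq (0.68) and Gbeta76C (1.11) and the rhodopsin phosphatase rdgC (0.58) were also higher. Of the 20 phototransduction genes, 6 were called more negative in XX for the difference of the contrasts (norpA, inaD, ninaC, Arr1, Gbeta76C and rdgC). Another 1, ninaD, was called more positive (1.51), beside 1.66% more negative and 1.21% more positive among all genes. Outside that list, ninaE was also called more negative in XX. The 8 photoreceptor markers, some of them members of this list, summed to 434165, 415110 and 424935 in tra2 XX w1118/w+, against 167333, 209099 and 257845 in tra2 XX w1118/w1118. Most of that sum came from ninaE, Arr1 and Arr2. Of the 8 markers 4 were called higher (ninaE, ninaC, Arr1 and Arr2) and 1 lower (Rh6), beside 2.51% and 1.53% of all genes. Rh3, Rh4 and trp were not called. The mean FPKM of Rh3 and Rh4 was lower in tra2 XX w1118/w+ and that of trp higher. Of 7 rhodopsins 1 was higher and 1 lower (median log2 fold change -0.29). Fewer photoreceptors and less RNA per photoreceptor cannot be told apart in bulk heads. The Rh6 opsin of R8 cells was lower, with 2766, 2512 and 2869 in tra2 XX w1118/w+, against 4392, 3788 and 3849 in tra2 XX w1118/w1118 (log2 fold change -0.55 ± 0.12 SE, adjusted p = 0.0172). The Rh3 opsin, not called in tra2 XX, had 11077, 7781 and 8479 in tra2 XX w1118/w+, against 10892, 9343 and 9883 in tra2 XX w1118/w1118, so that its groups overlapped where the marker sums did not. Summed neuron markers were 19575, 26827 and 23058 in tra2 XX w1118/w+, against 18225, 19164 and 16982 in tra2 XX w1118/w1118.

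In XX 2 of the 20 phototransduction genes were higher and none lower, beside 4.4% higher and 3.29% lower among all genes. The 2 were ninaD, a scavenger receptor for carotenoid uptake, and retinin, a lens protein gene. NinaD had 45.7 and 45.3 in XX w1118/w+, against 15.5, 17.2 and 14.8 in XX w1118/w1118, and 84.9, 93.2 and 89.3 in w+/w+ (log2 fold change 1.52 ± 0.20 SE, adjusted p = 0.000317). Of 7 rhodopsins tested 2 were lower in XX, the ultraviolet opsin Rh3 and the blue opsin Rh5, beside 3.29% lower among all genes. Rh3 had 5559 and 4249 in XX w1118/w+, against 9071, 7898 and 9003 in XX w1118/w1118 (log2 fold change -0.82 ± 0.19 SE, adjusted p = 0.0176). Rh5 had 1616 and 1333, against 3162, 2485 and 2729 (log2 fold change -0.92 ± 0.20 SE, adjusted p = 0.0103). The calls of Rh3 and Rh5 were lost without XX w1118/w+ replicate 2 (adjusted p = 0.218 and 0.153). The retinol dehydrogenase gene rdhB, of the opsin chromophore cycle, was higher in both contrasts, by 0.56 ± 0.11 in XX, where the call was lost without XX w1118/w+ replicate 2 (adjusted p = 0.0687), and by 0.98 ± 0.10 in tra2 XX. Retinin was not called when any 1 of the 5 XX libraries was left out (up to 0.210).

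Tan, period and dusky, all on the X, were among the genes with large changes in tra2 XX. Tan (t), a hydrolase that frees dopamine and histamine from their beta-alanine conjugates, had 2538, 2976 and 2824 in tra2 XX w1118/w+, against 741, 928 and 1084 in tra2 XX w1118/w1118 (log2 fold change 1.61 ± 0.12 SE, adjusted p = 4.03e-06). The clock gene period (per) had 674, 730 and 753, against 1637, 1831 and 1514 (log2 fold change -1.20 ± 0.12 SE, adjusted p = 4.66e-05). Dusky (dy), a zona pellucida domain protein of the cuticle, had 26.6, 14.2 and 27.5, against 2.77, 0.712 and 1.31 (log2 fold change 3.69 ± 0.37 SE, adjusted p = 3.84e-05). In XX none of the 3 was called, at 0.42 ± 0.13, -0.13 ± 0.14 and 0.76 ± 0.26, and each differed between the contrasts (adjusted p = 0.00309, 0.00611 and 0.00431). Other clock genes moved little: Clk was higher by 0.50 ± 0.12 and Pdfr by 0.39 ± 0.09 in tra2 XX, and vri and Pdfr by 0.40 ± 0.12 and 0.39 ± 0.10 in XX, each called in the fit and lost in at least 4 alternatives. The transporter gene MFS3 and CG14907 were lower in tra2 XX, by -2.11 ± 0.31 and -1.88 ± 0.26.

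Antimicrobial peptide genes, fat body targets of the Toll and Imd pathways, were higher in 5 of 15 members tested in tra2 XX, beside 2.51% of all genes, and lower in 1, Defensin (-1.85), in XX, beside 3.29%. With the deficiency libraries as the reference 2 were higher in tra2 XX. AttC had 190, 66.2 and 1188 in tra2 XX w1118/w+, against 21.3, 2.14 and 18.9 in tra2 XX w1118/w1118 (log2 fold change 5.03 ± 1.04 SE, adjusted p = 0.0122). CecA2 had 66.5, 18.9 and 506, against 5.54, 2.14 and 4.57 (log2 fold change 5.54 ± 1.17 SE, adjusted p = 0.0138), and DptB had 191, 86.0 and 1424, against 18.02, 3.56 and 18.9 (log2 fold change 5.35 ± 1.26 SE, adjusted p = 0.0277). Replicate 3 of tra2 XX w1118/w+ was the highest for every one of these genes, and no peptide gene was called without it, nor without tra2 XX w1118/w1118 replicate 2 or 3. In XX, DptA had 31.6 and 30.0 in w1118/w+, against 62.6, 9.36 and 1698 in w1118/w1118, where replicate 3 stood far above the other libraries. PGRP-SB1, a peptidoglycan recognition protein gene, was higher in tra2 XX, with 1411, 995 and 2706 in w1118/w+, against 751, 422 and 639 in w1118/w1118 (log2 fold change 1.505 ± 0.30 SE, adjusted p = 0.00940), and was called in every alternative but the deficiency reference.

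The contrasts share no library, and 66 genes were called in the same direction in both: 32 higher and 34 lower. They made up 8.60% of the XX calls, where 4.04% of all genes tested were called in tra2 XX in either direction. They made up 16.4% of the tra2 XX calls, where 7.69% of all genes tested were called in XX in either direction. The 66 were 0.662% of all genes, and another 10 genes were called in opposite directions (0.1%). Of the XX calls 68.4% had the same sign in tra2 XX, and of the tra2 XX calls 62.5% had the same sign in XX, against 55.0% of all genes tested. On the X lay 16 of the 66 and on the autosomes 46. Without XX w1118/w+ replicate 2 the shared genes numbered 29.

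CG13071 was the gene that fell most in both. It had 2.36 and 2.83 in XX w1118/w+, against 76.2, 70.0 and 90.4 in XX w1118/w1118, and 2.83, 1.62 and 0.790 in w+/w+ (log2 fold change -4.89 ± 0.33 SE, adjusted p = 5.10e-07). In tra2 XX it had 9.80, 17.0 and 6.73 in w1118/w+, against 115, 106 and 119 in w1118/w1118 (log2 fold change -3.40 ± 0.23 SE, adjusted p = 1.78e-06). Arc1, a capsid-forming synaptic gene of retrotransposon origin, had 218 and 288 in XX w1118/w+, against 951, 876 and 896 in XX w1118/w1118 (log2 fold change -1.84 ± 0.21 SE, adjusted p = 0.000134). It had 1253, 723 and 1177 in tra2 XX w1118/w+, against 4737, 4408 and 4557 in tra2 XX w1118/w1118 (log2 fold change -2.11 ± 0.18 SE, adjusted p = 1.30e-05). Neither gene overlapped between its groups in either contrast. CR10102, the next gene on 2R, moved with Arc1, by -1.53 ± 0.21 in XX and -1.98 ± 0.17 in tra2 XX. The log2 fold changes in XX and tra2 XX were -3.19 and -1.53 for CG8757, -1.63 and -1.59 for CG9150, -1.33 and -1.64 for CG14636, and -1.09 and -1.10 for the X-linked CR14798. Without XX w1118/w+ replicate 2 the XX call of CG14636 was lost (adjusted p = 0.151).

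Among genes higher in both, Snakeskin (Ssk), a protein of the smooth septate junctions of the gut, had 92.4 and 90.7 in XX w1118/w+, against 32.9, 38.4 and 41.9 in XX w1118/w1118, and 188, 157 and 193 in tra2 XX w1118/w+, against 90.6, 81.2 and 84.2 in tra2 XX w1118/w1118. It was higher by 1.28 ± 0.14 in XX (adjusted p = 5.22e-05) and by 1.08 ± 0.11 in tra2 XX (adjusted p = 5.27e-05), without overlap of the groups. The amylase genes Amy-p and Amy-d, near-identical paralogs whose unique reads may be split, were higher by 1.53 ± 0.32 and 1.08 ± 0.22 in XX and by 1.19 ± 0.26 and 1.00 ± 0.19 in tra2 XX. They are 2 of 10 gut markers, and only these 2 passed the filter on low counts. The sum of the 10 was 229 and 393 in XX w1118/w+, against 152, 156 and 97.5 in XX w1118/w1118, and 1331, 1026 and 1035 in tra2 XX w1118/w+, against 631, 501 and 519 in tra2 XX w1118/w1118. Without XX w1118/w+ replicate 2 neither amylase gene was called in XX (adjusted p = 0.226 and 0.167).

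Odorant-binding proteins, carriers of odorants in the antennal lymph and other tissues, gave 3 higher and 5 lower of 33 tested in XX, beside 4.4 and 3.29% among all genes, and 3 lower in tra2 XX, beside 1.53%. With the deficiency libraries as the reference none was called in XX, and 1 was higher and 2 lower in tra2 XX. The pheromone-binding lush had 58.5 and 96.3 in XX w1118/w+, against 202, 264 and 211 in XX w1118/w1118 (log2 fold change -1.55 ± 0.27 SE, adjusted p = 0.00282), and 221, 265 and 190 in tra2 XX w1118/w+, against 446, 382 and 441 in tra2 XX w1118/w1118 (log2 fold change -0.91 ± 0.22 SE, adjusted p = 0.0308). Obp28a was lower in both, by -0.85 ± 0.16 in XX and -0.69 ± 0.14 in tra2 XX. Obp56a had 10.4 and 19.8 in XX w1118/w+, against 73.4, 125 and 53.2 in XX w1118/w1118 (log2 fold change -2.50 ± 0.43 SE, adjusted p = 0.00291). The sum of 4 antenna markers, lush among them, was 813 and 1732 in XX w1118/w+, against 1884, 2963 and 2427 in XX w1118/w1118, and 3701, 3479 and 2903 in tra2 XX w1118/w+, against 6344, 5562 and 6057 in tra2 XX w1118/w1118. Those sums did not overlap in either contrast, nor did 43.2% of the genes tested in XX and 21.9% in tra2 XX. The part of the sums in the odorant-binding genes was not tested. Without tra2 XX w1118/w+ replicate 3 no odorant-binding gene was called in tra2 XX.

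Of the 10 genes called in opposite directions, TwdlG, a Tweedle cuticle protein gene, had the clearest values. It had 42.9 and 43.1 in XX w1118/w+, against 141, 142 and 149 in XX w1118/w1118 (log2 fold change -1.74 ± 0.15 SE, adjusted p = 6.64e-06), and 44.8, 48.2 and 45.3 in tra2 XX w1118/w+, against 17.6, 23.5 and 23.5 in tra2 XX w1118/w1118 (log2 fold change 1.12 ± 0.16 SE, adjusted p = 0.00105). The groups did not overlap in either, and the contrasts differed (adjusted p = 2.21e-05). The lipase gene Lip3, the acetyltransferase gene eco, the bestrophin gene Best2, the peptidase gene ome, CG10516, CG42821 and CG31100 were likewise lower in XX and higher in tra2 XX. The potassium channel gene Ork1 and CG33296 were higher in XX and lower in tra2 XX. In tra2 XX the sizes of 8 of the 10 changes were 1.12 or less on the log2 scale, and the others were those of Lip3 (1.77 ± 0.36) and CG10516 (1.14 ± 0.23). Of the 13 alternatives that keep tra2 XX w1118/w1118 as the reference, 9 ended the tra2 XX call of Ork1, 8 that of Best2, 7 those of CG42821 and CG33296, 5 that of eco, 4 those of ome and CG31100, 2 that of CG10516 and 1 that of Lip3. Of the 12 in XX, 6 ended the call of CG31100, 5 that of CG33296 and 1 each those of Lip3, eco, ome and CG10516.

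**Figure D5:**
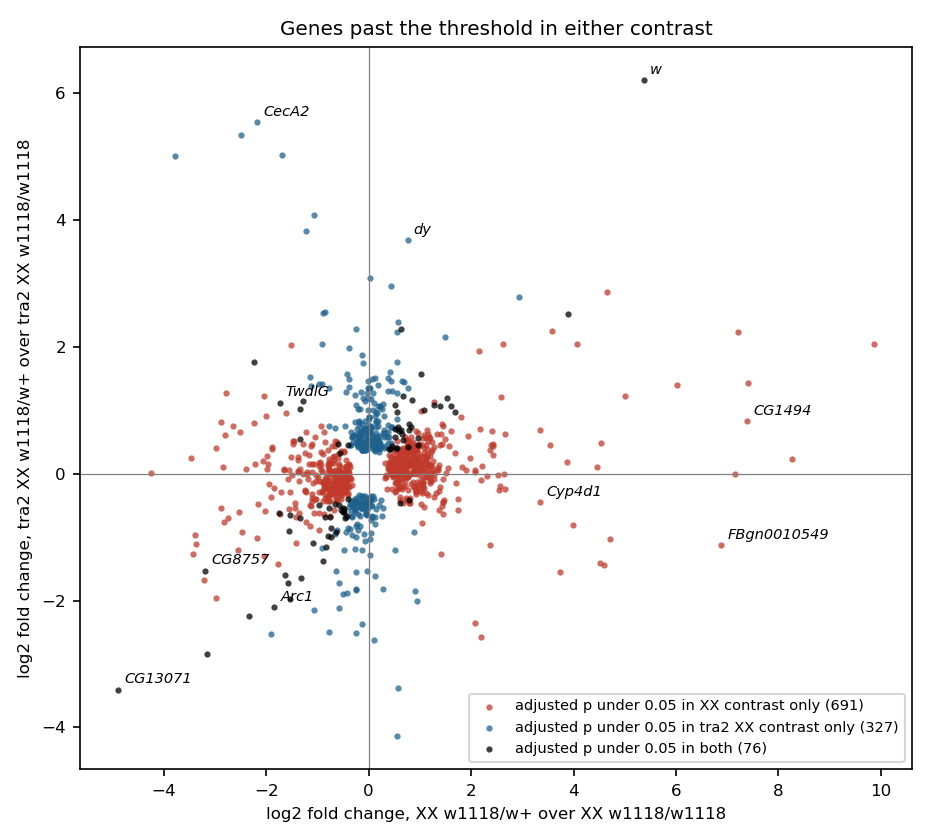
Log2 fold change of tra2 XX w1118/w+ over tra2 XX w1118/w1118 (y axis) against that of XX w1118/w+ over XX w1118/w1118 (x axis) for each gene past the threshold in either contrast (points), coloured by the contrast that called it. White lies at the upper right, CG13071 and Arc1 at the lower left, TwdlG at the upper left, and CG1494 and FBgn0010549 far to the right at XX values of 7.38 and 6.88 (fitted values of genes near 0 depend on the prior count).

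The difference of the contrasts was called for 287 genes, 121 more positive and 166 more negative in XX, 2.88% of those tested (1.21% more positive, 1.66% more negative). The largest positive differences belonged to the genes near 0 in w1118/w1118 described above, and CG9377 had 21.7 and 16.4 in XX w1118/w+, against 2.35, 0.986 and 0.591 in XX w1118/w1118, and 73.5, 79.4 and 41.0 in tra2 XX w1118/w+, against 257, 94.7 and 206 in tra2 XX w1118/w1118. The largest negative differences belonged to antimicrobial peptides and CG45045, in which XX w1118/w1118 replicate 3 and tra2 XX w1118/w+ replicate 3 were both high.

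The 3 XX groups place the heterozygote between its parental lines. In 94 genes the homozygous lines differed by at least 4-fold without overlap at a mean of at least 20 normalized read counts. The XX w1118/w+ mean lay between the homozygous means in 89 of the 94, at a median of 52.9% of the distance from w1118/w1118 to w+/w+ (quartiles 34.4 and 77.2%). The 48 genes higher in w+/w+ had a median of 44.8% and the 46 lower in w+/w+ one of 60.2%. For the 8 X-linked genes among the 94 the median was 42.2%, with CG1494 at 32.3% and white at 64.2%. This position reuses the w1118/w1118 and w1118/w+ libraries of the XX contrast.

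On the log2 scale the heterozygote lay off the middle of the homozygous lines in 43 genes (0.431% of those tested), above it in 31 and below it in 12. This deviation is the log2 level of w1118/w+ minus the mean of those of w1118/w1118 and w+/w+. Of the 31, 17 lay between the homozygous means, 7 of them under 50% of the way on the linear scale, CG1494 and FBgn0010549 being 2 of these. In 10 of the 43 genes both w1118/w+ libraries were above every library of both lines, as in 281 of all 9970 genes tested, called or not. These 10 were set apart after their values were seen. Of the 10, 3 encode components of the basement membrane, a number that was not tested against all genes. The collagen IV gene Col4a1 had 2177 and 2080 in XX w1118/w+, against 1127, 1025 and 932 in XX w1118/w1118 and 1674, 886 and 932 in w+/w+ (deviation 0.96 ± 0.19 SE, adjusted p = 0.0386). Viking (vkg), the other collagen IV chain and the neighbour of Col4a1, had 1247 and 1253 in XX w1118/w+, against 670, 563 and 571 in XX w1118/w1118 and 1012, 561 and 571 in w+/w+ (deviation 0.93 ± 0.18 SE, adjusted p = 0.0318). Papilin (Ppn) had 3048 and 3436 in XX w1118/w+, against 1729, 1667 and 1548 in XX w1118/w1118 and 1724, 1147 and 1051 in w+/w+ (deviation 1.14 ± 0.18 SE, adjusted p = 0.00970). Both lines stayed below the heterozygote in all 3 genes, with w+/w+ replicate 1 the highest of the homozygous libraries for the collagens. Against the XX deficiency libraries the log2 fold change of XX w1118/w+ was negative, at -0.34 for Col4a1, -0.48 for vkg and -0.058 for Ppn. None of these 3 passed the threshold.

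Hemolectin (Hml), a clotting protein of plasmatocytes, had 1231 and 1440 in XX w1118/w+, against 768, 520 and 511 in XX w1118/w1118 and 852, 418 and 375 in w+/w+ (deviation 1.22 ± 0.24 SE, adjusted p = 0.0386). The 3 blood cell markers tested, Hml, NimC1 and Pxn, were all higher in XX w1118/w+ than in XX w1118/w1118, by 1.16 ± 0.28, 1.47 ± 0.32 and 0.53 ± 0.14, beside 4.4% higher among all genes. In tra2 XX the same genes were at 0.10 ± 0.25, -0.41 ± 0.30 and -0.14 ± 0.13, not past the threshold. Their list summed to 2596 and 2738 in XX w1118/w+, against 1557, 1295 and 1312 in XX w1118/w1118, and no blood cell marker was called when either XX w1118/w+ library was left out. With the XX deficiency libraries as the reference no blood cell marker was called. The median log2 fold change of the list was then -0.037 and that of Hml -0.29. Below both lines lay 8 genes, among them the antennal dehydrogenase gene Antdh with 263 and 313 in XX w1118/w+, against 524, 614 and 562 in XX w1118/w1118 and 367, 493 and 472 in w+/w+. CG9150 had 52.8 and 41.4 in XX w1118/w+, against 148, 146 and 147 in XX w1118/w1118 and 97.2, 81.9 and 74.2 in w+/w+. The inward rectifier potassium channel gene Irk1 had 148 and 165 in XX w1118/w+, against 273, 305 and 380 in XX w1118/w1118 and 217, 198 and 192 in w+/w+. Over all 9970 genes, whether called or not, 281 had both w1118/w+ libraries above and 362 below every homozygous library.

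Of 4 fat body markers 2, apolpp and Glt, were called higher in XX w1118/w+, beside 4.4% of all genes. The other 2, Lsp2 and takeout (to), were not called in XX. The mean FPKM of Lsp2 was lower in XX w1118/w+ than in XX w1118/w1118, and that of takeout was nearly equal. The yolk protein genes Yp2 and Yp3 were also called higher in XX w1118/w+. Yp3 was higher by 1.20 ± 0.23 and Yp2 by 1.22 ± 0.30, and in w+/w+ Yp3 had 234783, 336402 and 379270, against 106769, 150690 and 98782 in XX w1118/w1118. Glutactin (Glt), a secreted basement membrane protein, had 8741 and 11241 in XX w1118/w+, against 3597, 4648 and 3582 in XX w1118/w1118 (log2 fold change 1.34 ± 0.20 SE, adjusted p = 0.000916), and the apolipophorin gene apolpp was higher by 1.11 ± 0.25. Without XX w1118/w+ replicate 2 the adjusted p was 0.153 for Yp2, 0.0687 for Yp3 and 0.246 for apolpp, whereas Glt was called in all 12 alternatives other than the deficiency reference. In tra2 XX, where yolk protein genes were near their male level, takeout (to) was the only fat body marker called, with 20908, 18148 and 19005 in w1118/w+, against 9655, 2919 and 11461 in w1118/w1118 (log2 fold change 1.28 ± 0.33 SE, adjusted p = 0.0447). That call was lost without any 1 of 4 libraries, tra2 XX w1118/w1118 replicate 1 and each tra2 XX w1118/w+ replicate (up to 0.134).

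The pass-flagged deficiency libraries, 89 in XX and 90 in tra2 XX, came from crosses among w1118 stocks. White was read in every one of them, at the levels given above, so they are no reference without white RNA. They gave a range of levels for each gene. That range includes genes inside each deletion. The calls below were chosen from the same w1118/w+ and w1118/w1118 libraries, so they are more prone than all genes to lie outside it. Of the 767 XX calls, every w1118/w+ library lay outside the range of the XX deficiency libraries in 63 (8.21%), against 1.41% of all genes tested. Every w1118/w1118 library lay outside it in 43 (5.61%), against 1.76% of all genes. Of the 403 tra2 XX calls, every w1118/w+ library was outside in 35 (8.68%, against 2.47% of all genes) and every w1118/w1118 library in 21 (5.21%, against 0.913%). In 664 of the XX calls neither group was wholly outside. Among those 63 were CG1494, FBgn0010549, CG42586, CG3285, CG15408, CG4714, Osi22, Cyp4d1 and Cyp6a17, all above the range, and Arc1, CG8757, Osi2, Cpr49Ag and Act88F, all below it.

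Alcohol dehydrogenase (Adh) had 68.4 and 113 in XX w1118/w+, against 43.8, 49.3 and 56.1 in XX w1118/w1118, with at most 63.9 in a deficiency library and 157, 141 and 157 in w+/w+ (log2 fold change 0.87 ± 0.23 SE, adjusted p = 0.0340). The call of Adh was lost without XX w1118/w+ replicate 2 (adjusted p = 0.407). Zwischenferment (Zw), the glucose-6-phosphate dehydrogenase on the X, had 196 and 216, against 257, 320 and 314, with 227 or more in the deficiency libraries and a log2 fold change of -0.52 ± 0.13 that 4 of the 5 leave-outs ended (adjusted p up to 0.147). In tra2 XX, Galphaq, tau and the tachykinin gene Tk had every w1118/w+ library above the deficiency range, Galphaq with 1568, 1737 and 1640 in w1118/w+, against 831, 1072 and 1209 in w1118/w1118. By contrast, period had 3 of 3 w1118/w1118 libraries above the range of the tra2 deficiency libraries and no w1118/w+ library outside it. Adh, Zw, Galphaq, tau and Tk were picked after their values were seen.

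The tra2 XY w1118/Y libraries (n = 3) came from the same cross as tra2 XX w1118/w+, received the w1118 X of the mother and no w+ X, and shared its autosomal parents. Among the 302 autosomal genes called in tra2 XX, their mean was nearer to tra2 XX w1118/w+ than to tra2 XX w1118/w1118 in 64 (21.2%), against 45.4% of all autosomal genes tested. Among the 87 X-linked calls it was nearer in 24 (27.6%), against 43.6% of all X-linked genes. It was nearer in none of the 9 phototransduction genes, with 3108, 4027 and 5550 for norpA and 2972, 1695 and 2831 for inaD, and 939, 771 and 1061 for tan. For Arc1 the tra2 XY libraries had 2814, 2252 and 2563, between the tra2 XX groups, and for CG13071 129, 79.5 and 112, near tra2 XX w1118/w1118. For Yp2 the replicates 1, 2 and 3 of tra2 XY w1118/Y had 52431, 75.4 and 59.4, so replicate 1 stood apart, and without it the shares were 30.1% on the autosomes and 34.5% on the X, against 48.4% of all genes on each. Here the w+ X, the X dose and the karyotype cannot be told apart.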

How the data were processed

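Heads of adult D. melanogaster were profiled by RNA-Seq. Per the study's methods, poly-A+ RNA from pools of 10 heads was made into TruSeq RNA V2 libraries, which do not mark strand, and read as 76 nt single ends, and only uniquely mapped reads were kept. The submitters' processing notes name CASAVA 1.8.2, TopHat2 2.0.10, HTSeq 0.5.4p1, DESeq2 1.6.3 and Cufflinks 2.1.1. The authors deposited raw read counts per gene, which entered the tests as deposited. The authors also deposited normalized read counts, a signal per gene scaled by DESeq2 size factors over 235 libraries, which are the levels given here. FPKM values deposited by the authors, made with Cufflinks, were read for the gene lists only and are not printed. Gene names, chromosome arms and overlaps came from the reference annotation by FlyBase gene ID (16815 of 17142 genes matched). No coordinates or sequences are given because the files use FlyBase release 5.57.

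Lines naming no gene (5.87 to 10.1% of the reads) and 96 spike-ins were left out. The 14 deficiency-free libraries with 2 X chromosomes were fitted together with edgeR 4.0.16 in R 4.3.3 (filterByExpr, TMM, glmQLFit, glmQLFTest, 1 mean per group, no covariate), with Benjamini-Hochberg adjustment over 9970 genes and genes under 0.05 were called. SEs were derived from each fold change and its F statistic (size of the log2 change divided by the root of F). The common dispersion was 0.0203. Where every library of the lower group had 3 reads or fewer, the fold is a lower bound against 3 reads per library. Such bounds cover counting error only. Groups had 2 or 3 libraries, so precision is set by few pools.

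Named genes were white and the eye pigment lists, and genes taken by rule. For the fold changes, genes had to be called at a mean of at least 20 normalized read counts without overlap of the groups. Of these, the 10 largest changes each way in XX, 6 each way in tra2 XX and 10 called in both were named. For the difference and the deviation from the middle, 5 each way were named at the same minimum mean, without the rule on overlap. Up to 4 called members of each of 29 gene lists were named per contrast, with neither rule. The lists matched 482 names and 19 were not matched. Genes and lists were chosen with earlier results of these data known. Genes called in opposite directions, and those outside both homozygous lines, were named after their values were seen where no rule had taken them. Alternatives were RLE scaling, no filter on low counts, a mean above 6 normalized read counts, only the groups compared, a replicate block, DESeq2 1.42.0, each library left out, the pass-flagged deficiency libraries as the reference, and, chosen after seeing the data, the fit without ribosomal RNA genes. Reads on more than 1 gene (3.86 to 7.94% of the reads) were counted for none.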

Additional observations from a re-analysis of the deposited data

Results flagged for a closer look

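The XX contrast minus the tra2 XX contrast, both w1118/w+ over w1118/w1118, was past the threshold for 287 genes (edgeR's quasi-likelihood test of the interaction, Benjamini-Hochberg adjusted), and 58 of the named genes were among them. Fitted differences of genes with a group near 0 depend on the prior count. Groups held 2 or 3 libraries, so no library was tested for standing apart from its group.

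In photoreceptor genes the log2 difference was -1.45 for ninaE, -1.31 for norpA, -1.32 for inaD, -1.36 for Arr1, -0.84 for ninaC, -1.01 for Gbeta76C and 1.51 for ninaD. For other genes of the eye, the clock and amine metabolism it was -1.24 for se, -0.91 for Mco1, -1.19 for t, 1.06 for per and -0.74 for Clk.

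In genes near 0 in XX w1118/w1118 it was 6.55 for CG1494, 8.0 for FBgn0010549, 5.97 for CG42586, 3.77 for CG4714, 4.35 for Osi22 and 5.29 for CG9377. In P450 and transferase genes it was 4.06 for Cyp309a2, 3.78 for Cyp4d1, 2.65 for Cyp6a17, 3.70 for Cyp6d2 and -1.01 for GstE3.

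In immune genes it was -6.72 for AttC, -9.55 for CecA1, -8.80 for CecC, -11.23 for DptA, -7.83 for DptB, -9.07 for CG45045, -0.70 for PGRP-LA, -1.57 for PGRP-LB and -2.14 for PGRP-SD. In 6 of these (AttC, CecA1, CecC, DptA, DptB and CG45045) tra2 XX w1118/w+ replicate 3 and XX w1118/w1118 replicate 3 were each the highest library of their group. In genes of blood cells and basement membrane it was 1.89 for NimC1, 1.20 for Col4a1 and 1.18 for vkg.

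In cuticle, odorant-binding and stress genes it was -2.46 for Acp1, -1.69 for Cpr49Ag, -2.86 for TwdlG, -2.93 for dy, -3.16 for Obp56a, -3.41 for Osi2 and -1.13 for l(2)efl. In the other genes it was -0.88 for Best2, -2.43 for CG10516, -2.93 for CG17005, -0.86 for CG31100, -2.14 for CG31205, 1.06 for CG33296, -1.93 for CG42367, 1.89 for CG42694, -1.89 for CG42821, -1.67 for CG8757, -0.91 for Irk1, -4.0 for Lip3, 1.20 for Ork1, -2.37 for eco, -1.06 for ome and -0.84 for tra.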

How the results depend on the processing

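With 1 library left out, the genes called numbered 209 to 538 in XX, 193 to 363 in tra2 XX, 120 to 294 for the difference of the contrasts, 10 to 110 for the deviation from the middle and 29 to 61 for genes shared by both contrasts. DESeq2 called 524 genes for the difference, 136 for the deviation and 102 shared, and no filter on low counts gave 130 for the deviation. Over the values of named genes, 1426 kept their side of the threshold when a library was left out and 520 lost it. Deviations from the group mean correlated between same-numbered libraries at 0.0373 to 0.199 within the 2 contrasts. Differently numbered libraries were not compared, so these values cannot decide whether the replicate numbers pair the libraries. With the replicate numbers as a block 726 genes were called in XX, 424 in tra2 XX and 306 for the difference, 45 for the deviation and 69 in both.

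With the deficiency libraries as the reference the counts were 196 in XX and 2634 in tra2 XX, and 32 named values turned their sign. The log2 values were then, in XX, -0.20 for Amy-d, -0.11 for Amy-p, -0.051 for CG10863, -0.34 for Col4a1, -0.29 for Hml, -0.11 for Hn, -0.058 for Ppn, -0.031 for Rab32, -0.36 for RpLP0, -0.88 for bw, -0.039 for kar, -0.20 for rdhB, -0.83 for retinin, -0.48 for vkg, -0.24 for vri and -3.49 for white (w). In tra2 XX they were -0.17 for Amy-d, -0.093 for Amy-p, 0.12 for Antdh, -0.24 for Arr2, 0.28 for CG8757, 0.42 for CG9150, -0.062 for Mco1, 0.15 for Obp28a, 0.091 for Ork1, -0.42 for PGRP-SD, 0.00107 for lush, -0.078 for ome, 0.21 for per, -0.72 for ry, -0.36 for st and -5.53 for white (w). White was read in every deficiency library, so this reference is not one without white RNA, and the cause of the turned signs was not tested. Where every w1118/w1118 library had 3 reads or fewer the folds given are lower bounds, and the fitted folds of other genes near 0 depend on the prior count.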

Other observations

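The genes called with every w1118/w+ library, and not every w1118/w1118 library, outside the range of the deficiency libraries numbered 60 in XX (7.82% of the calls, against 1.03% of all genes) and 33 in tra2 XX (8.19% of the calls, against 2.15% of all genes). The calls were chosen from these same libraries, so they are more prone than all genes to lie outside that range. The members given here had not yet been described and were picked one by one after their values were seen. In tra2 XX, Ggamma30A, a visual G protein gamma subunit, was higher by 0.91 on the log2 scale (adjusted p = 0.00122), homer, a postsynaptic scaffold, by 1.07 (adjusted p = 1.29e-05), Synd, a membrane-bending syndapin, by 0.70 (adjusted p = 0.00144), Ekar, a kainate-type glutamate receptor of photoreceptors, by 0.96 (adjusted p = 0.00193), prom, a prominin, by 0.76 (adjusted p = 0.0313) and the serotonin receptor gene 5-HT2A by 0.65 (adjusted p = 0.0134). In XX they were the carnitine acyltransferase gene CROT, higher by 1.16 (adjusted p = 0.00288), the neuropeptide gene CNMa, higher by 2.37 (adjusted p = 0.0203), Sod3, an extracellular superoxide dismutase, lower by -0.74 (adjusted p = 0.0408) and the zinc transporter gene Zip89B, lower by -0.88 (adjusted p = 0.00130).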
